A study of Mus musculus with 1248 samples.

Results

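The cells described here are cultured 4T1 cells, each sequenced on its own, separated by how much Epcam and Cldn4 RNA they held. 4T1 is a mammary carcinoma line of the BALB/c mouse, here carrying firefly luciferase and mCherry, and cells were sorted singly by flow cytometry for full-length Smart-seq2 libraries. All 54 deposited 4T1 culture cells, of 1248 cells in the series, had at least 1000 detected genes and 50000 gene counts. The classes were chosen by measured values: the CPM of Epcam plus Cldn4, CPM being a count scaled to 1000000 counts of gene total in each cell. The 28 Epcam-high cells held 200 CPM or more, 8 intermediate cells held between 50 and 200 CPM, and the 18 Epcam-low cells held under 50 CPM. All 3 classes come from the same labelled line in culture, untreated as far as the labels say, and the labels set nothing apart between them. The labels name no separate culture, plate or sort for a cell, so the 54 cells count as 1 sample, and the comparison has no replicate check and no p-value. Other groups used here are 54 cultured cells of 4T1.2, a clonal subline of 4T1, and 96 4T1 cells recovered from mammary fat pad tumours of female BALB/c mice at day 22. The labels do not tie a fat pad cell to an animal.

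Epcam is a surface glycoprotein of epithelial cells, and Cldn4 is a claudin, one of the proteins that seal tight junctions. Epithelial cells hold together through E-cadherin junctions, desmosomes and tight junctions, keep an apical and a basal side, and build a keratin skeleton. Carcinoma cells can give up part of this programme and take on mesenchymal features such as the filament protein vimentin, a shift driven in many systems by the repressors Snai1, Snai2, Zeb1, Zeb2 and Twist1. Many carcinoma cells hold features of both states.

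Epcam lies at chr17:87635979-87651129 on the plus strand and Cldn4 at chr5:134945119-134946934 on the minus strand (GRCm38, GENCODE M21). The sum of both genes had its lowest, median and highest values at 229, 545 and 1301 CPM in Epcam-high cells, at 52.3, 79.2 and 147 CPM in intermediate cells, and at 0.585, 13.0 and 45.9 CPM in Epcam-low cells. The Epcam-high cell nearest its limit held 229 CPM and the intermediate cell nearest that limit 147 CPM. At the lower limit, the nearest intermediate cell held 52.3 CPM and the nearest Epcam-low cell 45.9 CPM. No cell lay close to 200 CPM, whereas cells followed each other closely around 50 CPM. These values chose the classes and are a description only.

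The genes did not always move together. Cldn4 had its lowest, median and highest values at 0.449, 149 and 928 CPM in Epcam-high cells, against 0, 0.599 and 32.4 CPM in Epcam-low cells. Of the 28 Epcam-high cells, 4 held under 50 CPM of Cldn4 and qualified through Epcam, and 4 held under 200 CPM of Epcam and needed Cldn4 to qualify. Cldn4 reached 10 CPM in 2 of 8 intermediate cells, so those cells were mostly Epcam alone. Across the 54 cells, the rank correlation (Spearman) of Epcam with Cldn4 was 0.71, a description over cells that share 1 source and differ in depth.

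**Figure D1:**
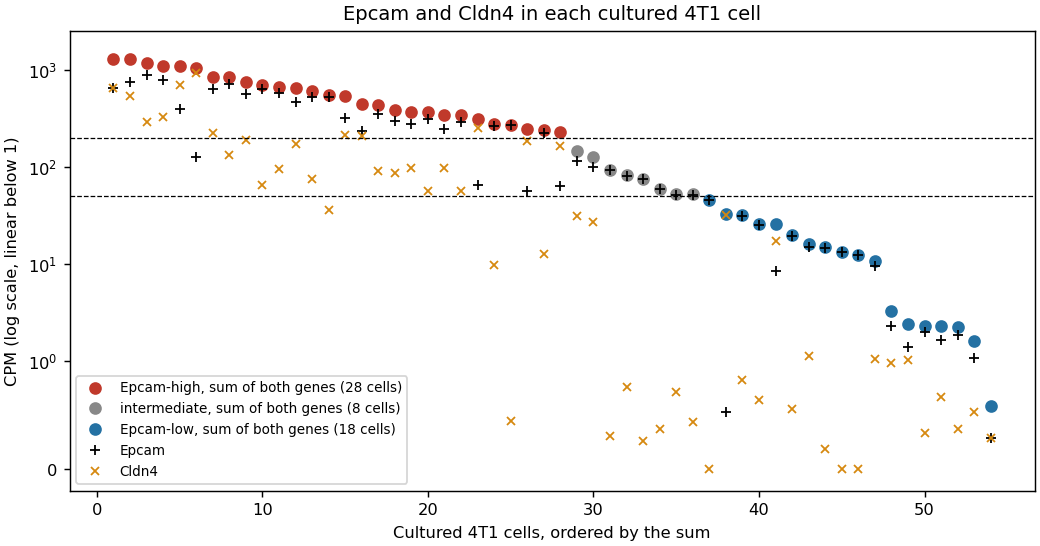
Epcam (plus signs), Cldn4 (crosses) and their sum (filled points, coloured by class) in CPM for each of the 54 cultured 4T1 cells, ordered by the sum, on a log axis that is linear below 1 CPM. Dashed lines mark 200 and 50 CPM, and the sum runs from 1301 CPM in the first cell to 0.585 CPM in the last.

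The promoter windows of genes that differed between the classes are shown because repressors such as Snai1 and Zeb2 are known to bind the E-box letters CACCTG (read CAGGTG on the opposite strand) in epithelial promoters. Windows run from 250 bases before to 50 bases after the RefSeq start (GRCm38.p6), are written 5′ to 3′ on the strand of the gene, and carry the E-box letters in capitals. Epcam and Cldn4 each had 2 matches. Rab25 and Ap1m2, which act in membrane traffic of polarised cells and were higher in Epcam-high cells, had 2 and 4 matches. Jup, also higher in Epcam-high cells, and Vim, lower in them, had 0 matches. The Vim window lies wholly inside the GENCODE span of the gene.
Epcam, chr17:87635729-87636028, plus strand: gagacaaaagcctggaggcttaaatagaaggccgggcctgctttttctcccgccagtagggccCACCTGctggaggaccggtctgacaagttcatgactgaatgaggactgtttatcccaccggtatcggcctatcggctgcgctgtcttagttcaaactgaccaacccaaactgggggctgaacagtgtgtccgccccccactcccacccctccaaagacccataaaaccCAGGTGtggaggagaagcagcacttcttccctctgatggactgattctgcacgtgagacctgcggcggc
Cldn4, chr5:134946885-134947184, minus strand: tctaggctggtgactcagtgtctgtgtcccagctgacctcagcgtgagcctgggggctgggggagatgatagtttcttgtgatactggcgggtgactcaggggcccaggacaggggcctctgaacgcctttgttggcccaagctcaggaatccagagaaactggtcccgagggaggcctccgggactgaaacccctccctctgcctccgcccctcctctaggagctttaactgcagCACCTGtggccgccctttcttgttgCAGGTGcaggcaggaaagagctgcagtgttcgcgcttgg
Rab25, chr3:88548230-88548529, minus strand: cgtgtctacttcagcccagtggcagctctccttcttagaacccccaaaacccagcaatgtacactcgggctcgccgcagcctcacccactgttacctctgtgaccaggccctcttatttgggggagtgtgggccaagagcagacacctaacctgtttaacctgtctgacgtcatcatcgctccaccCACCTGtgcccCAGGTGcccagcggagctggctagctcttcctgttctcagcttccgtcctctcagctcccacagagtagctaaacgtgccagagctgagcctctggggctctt
Ap1m2, chr9:21312284-21312583, minus strand: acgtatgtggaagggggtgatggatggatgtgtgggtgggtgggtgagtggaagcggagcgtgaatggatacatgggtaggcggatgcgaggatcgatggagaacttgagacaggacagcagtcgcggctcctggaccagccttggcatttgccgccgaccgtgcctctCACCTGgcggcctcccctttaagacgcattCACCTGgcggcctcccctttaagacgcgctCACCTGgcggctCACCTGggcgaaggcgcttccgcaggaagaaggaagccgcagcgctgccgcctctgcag
Jup, chr11:100397741-100398040, minus strand: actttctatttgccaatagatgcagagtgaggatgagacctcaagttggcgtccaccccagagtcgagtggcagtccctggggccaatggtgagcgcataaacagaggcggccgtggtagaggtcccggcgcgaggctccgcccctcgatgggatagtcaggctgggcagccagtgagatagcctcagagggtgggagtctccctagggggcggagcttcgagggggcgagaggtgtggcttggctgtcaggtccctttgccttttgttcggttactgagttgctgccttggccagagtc
Vim, chr2:13574061-13574360, plus strand: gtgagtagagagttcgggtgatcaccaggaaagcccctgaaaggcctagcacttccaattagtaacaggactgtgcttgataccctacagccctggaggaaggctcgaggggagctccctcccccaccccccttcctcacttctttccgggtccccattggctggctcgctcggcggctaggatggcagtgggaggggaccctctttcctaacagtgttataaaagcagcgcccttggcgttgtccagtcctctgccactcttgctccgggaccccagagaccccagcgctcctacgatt
Cldn3 had 1 match, the 2 windows of Cldn7 had 0 and 2, Sparc, which was lower in Epcam-high cells, had 1, and Krt14, whose RefSeq start lies inside its GENCODE span, had 0. Cdh1, Esrp1 and Mal2 had no window in the table.

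Counts were summed per class, giving 78152003 gene counts in Epcam-high, 24431116 in intermediate and 59617561 in Epcam-low cells. A level below is the CPM of that sum, with its 95% exact Poisson interval where given, which covers counting error only, since reads are not molecules. A ratio is log2 of (CPM + 5) in Epcam-high over (CPM + 5) in Epcam-low cells, and a gene is called at 2-fold or more. The pseudocount of 5 CPM understates the ratio of low genes. CPM is not scaled by gene length, so levels are compared between classes and not between genes. Of 9982 other genes with 5 CPM or more in either class, 300 (3.01%) were called higher and 151 (1.51%) lower in Epcam-high cells, and the median ratio of all was -0.03. Because the classes were cut from RNA of the same cells, these counts are a description of how far the rest of the transcriptome went along.

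Over all genes with a promoter window, the E-box CACCTG, on either strand, was present for 34.4% of the 218 genes called higher in Epcam-high cells, 16.4% of the 116 called lower and 19.8% of the 7810 measured. Across the whole table of 27025 genes the share was 22.6%. At least 2 matches were present for 9.17%, 2.59%, 2.75% and 3.32% of these sets, in the same order. Most genes called higher thus had fewer matches than the Epcam, Cldn4, Rab25 and Ap1m2 windows printed above. TGAGTCA, the AP-1 letters, on either strand, stood in 10.6%, 11.2%, 4.60% and 5.95% of the same sets, and Cldn4 had 2 of them. AACCGGTT, the letters of grainyhead factors and the same on both strands, stood in 0 of the 218, 0 of the 116, 0.282% of the 7810 and 0.174% of the 27025. These 3 motifs and the genes shown were chosen with the results known, the shares were not tested, and a match is no site.

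Gene totals per cell had medians of 2753501 in Epcam-high and 3080415 in Epcam-low cells, and the lowest single total was 294795, in an Epcam-high cell. Detected genes had medians of 11336 in Epcam-high and 11261 in Epcam-low cells, and mitochondrial counts medians of 2.99% in Epcam-high and 2.62% in Epcam-low cells. The reporter mCherry had medians of 456 CPM in Epcam-high and 700 CPM in Epcam-low cells. Cells numbered 27 or lower in the labels made up 17 of 28 Epcam-high and 5 of 18 Epcam-low cells. The numbers name no batch, and the part of cell number or of mCherry in the results was not tested. Of the 300 genes called higher and the 151 called lower, 214 and 68 were called in the same direction within cells numbered 27 or lower (17 Epcam-high and 5 Epcam-low cells), and 248 and 124 within those numbered 28 or higher (11 Epcam-high and 13 Epcam-low cells). Over all measured genes, 656 of 9941 were called higher and 277 lower in the first set. In the second set, 564 of 10133 were called higher and 334 lower. The 24 genes furthest apart, picked for that over all cells, were past 2-fold in both sets. Both sets are parts of the cells that picked these genes, so the overlap was partly built in and is no replicate check.

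The 12 genes furthest higher in Epcam-high cells included Krt14, Fam167a, Krt16, Lama3, Wnt10a, Serpinb2, Rab25, Ap1m2, Atf3, Rcan1 and Serpinb5, with ratios between 5.32 and 3.25. Krt14, a keratin of basal epithelial cells at chr11:100203162-100207548, had a summed level of 823 CPM (interval 816 to 829) in Epcam-high and 15.7 CPM (14.7 to 16.8) in Epcam-low cells. Single cells had their lowest, median and highest Krt14 values at 0, 353 and 4251 CPM in the Epcam-high class, against 1.09, 3.55 and 71.0 CPM in the Epcam-low class. Nearly all Epcam-high cells lay above the Epcam-low median, and the classes overlapped through the lowest Epcam-high cells. Fam167a had 133 CPM in Epcam-high and 2.78 CPM in Epcam-low cells, and 25 of 28 against 1 of 18 cells reached 10 CPM. Serpinb5, the serpin maspin, had 69.1 CPM in Epcam-high and 2.80 CPM in Epcam-low cells, with 22 of 28 and 2 of 18 cells at 10 CPM or more.

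Part of this group rested on fewer cells. Serpinb2, an inhibitor of plasminogen activators, had a median of 1.44 CPM over Epcam-high cells and a highest cell of 1475 CPM, against a median of 0.541 and a highest cell of 41.7 CPM in Epcam-low cells. Krt16, a keratin of stressed and hyperproliferative epidermis, reached 10 CPM in 15 of 28 Epcam-high and 1 of 18 Epcam-low cells, and its highest Epcam-high cell held 1427 CPM. Wnt10a, a secreted Wnt ligand, was more widely held and reached 10 CPM in 21 of 28 Epcam-high and 0 of 18 Epcam-low cells. Atf3, a stress-induced transcription factor, and Rcan1, an inhibitor of calcineurin, reached 10 CPM in 16 and 11 of 28 Epcam-high and in 1 and 3 of 18 Epcam-low cells. With Cldn4 alone setting the class, their ratios were 0.77 and 0.98, under the 2-fold limit, and with a single limit of 100 CPM the ratio of Atf3 was 0.84.

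Junction genes leaned to the Epcam-high side as a group. Of 31 measured members of the junction list other than Epcam and Cldn4, 14 were called higher and 0 lower, with a median ratio of 0.84. Cdh1 encodes E-cadherin, the adhesion receptor of adherens junctions, at chr8:106603351-106670246. Its lowest, median and highest values were 123, 425 and 657 CPM in Epcam-high cells, against 2.33, 65.4 and 310.1 CPM in Epcam-low cells. Every Epcam-high cell held Cdh1 above 100 CPM, and the Epcam-low cells spread widely, from near 0 up into the range of the Epcam-high ones. The ratio of the sums was 2.25. Ctnnb1, the beta-catenin that binds E-cadherin, had a ratio of 0.01.

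Some desmosome genes were among the members furthest apart, and others were not called. Jup, plakoglobin, had summed levels of 373 CPM in Epcam-high and 50.1 CPM in Epcam-low cells, a ratio of 2.78, with all 28 Epcam-high cells at 39.7 CPM or more. Perp, a membrane protein of desmosomes, had 313 CPM in Epcam-high and 75.5 CPM in Epcam-low cells, and Pkp3, a plakophilin, 192 CPM in Epcam-high and 82.5 CPM in Epcam-low cells. Dsc2, a desmosomal cadherin, reached 10 CPM in 11 of 28 Epcam-high and 1 of 18 Epcam-low cells. The plaque proteins Ppl and Evpl had ratios of 1.36 and 1.00. Dsp, Dsg2, Pkp1 and Pkp2, also of desmosomes, were not called, with ratios of 0.87, 0.84, 0.70 and 0.03.

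Several tight junction genes other than Cldn4 were called in the same direction. Cldn3 had 373 CPM in Epcam-high and 49.6 CPM in Epcam-low cells, and Cldn7, a claudin known to bind Epcam, 238 CPM in Epcam-high and 29.7 CPM in Epcam-low cells. Cldn7 reached 10 CPM in 21 of 28 Epcam-high and 12 of 18 Epcam-low cells, so it was not confined to either class. Ocln, Marveld2 and Marveld3, the occludin family, had ratios of 1.71, 1.52 and 1.76, and Cgn, the cytoplasmic linker cingulin, 1.58. The scaffold Tjp1 had a ratio of 0.25.

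Genes of polarity and apical traffic held sharp contrasts in single cells. Of 18 measured members, 7 were called higher and 0 lower, with a median ratio of 0.53. Rab25, a small GTPase of recycling endosomes in epithelia (chr3:88542029-88548300), had lowest, median and highest values of 0, 70.0 and 223 CPM in Epcam-high cells, against 0, 0 and 1.29 CPM in Epcam-low cells. It reached 10 CPM in 21 of 28 Epcam-high and 0 of 18 Epcam-low cells, while a few Epcam-high cells held none. Ap1m2, the epithelial subunit of a clathrin adaptor that sorts basolateral cargo, likewise reached 10 CPM in 21 of 28 Epcam-high and 0 of 18 Epcam-low cells, with summed levels of 61.6 CPM in Epcam-high and 0.168 CPM in Epcam-low cells. Mal2, a raft protein of apical transport, had 22 of 28 Epcam-high and 0 of 18 Epcam-low cells at 10 CPM or more. Crb3, of the apical Crumbs complex, reached 10 CPM in 15 of 28 Epcam-high and 0 of 18 Epcam-low cells. Mal, a relative of Mal2, had 190.0 CPM in Epcam-high and 31.6 CPM in Epcam-low cells, and 4 of 18 Epcam-low cells still reached 10 CPM.

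Among epithelial transcription and splicing factors, 6 of 13 measured members were called higher and 0 lower, with a median ratio of 0.82. Esrp1, a splicing regulator that sets epithelial exon choice (chr4:11331933-11386783), had lowest, median and highest values of 0, 34.1 and 176 CPM in Epcam-high cells, against 0, 0 and 0.396 CPM in Epcam-low cells. Its paralogue Esrp2 had a smaller ratio of 1.29, and 11 of 18 Epcam-low cells reached 10 CPM. Ovol1, a zinc finger repressor of mesenchymal genes, had 35.9 CPM in Epcam-high and 1.11 CPM in Epcam-low cells. Sox9 and Tfcp2l1 had ratios of 1.35 and 1.18. Grhl2, a grainyhead factor that sustains Cdh1, was not called, with 30.9 CPM in Epcam-high and 24.3 CPM in Epcam-low cells (ratio 0.29), and Elf3 had a ratio of 0.82.

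**Figure D2:**
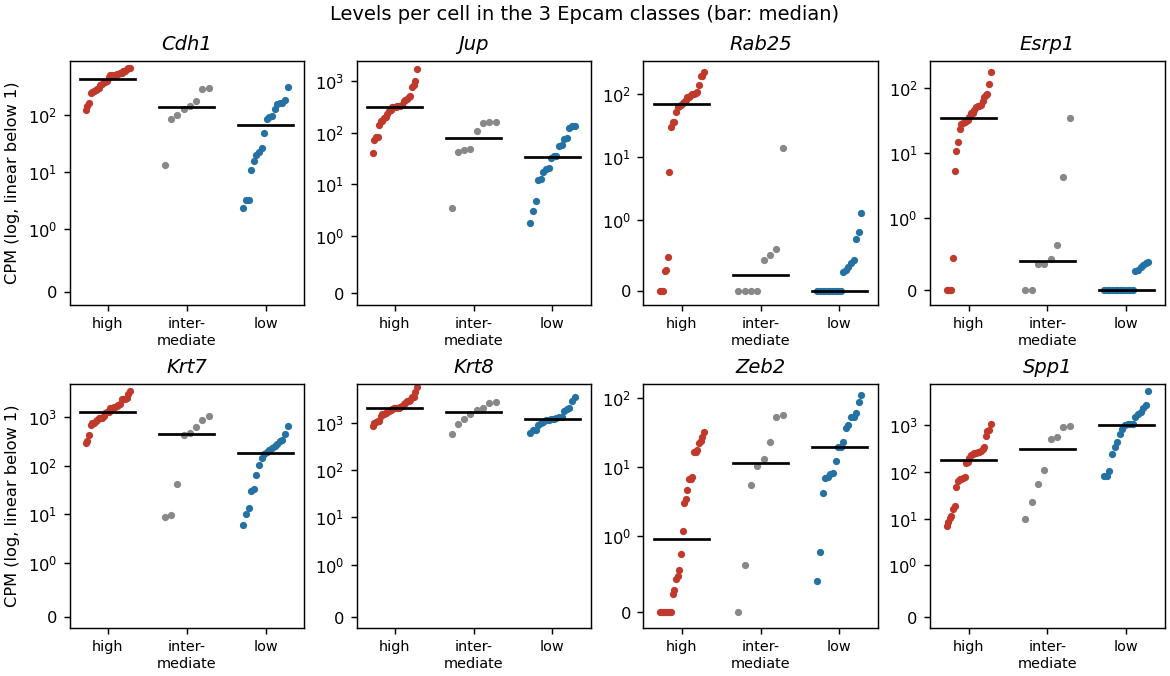
CPM of 8 genes in each cultured 4T1 cell, on log axes that are linear below 1 CPM, with Epcam-high cells on the left, intermediate cells in the middle and Epcam-low cells on the right; bars are class medians and points are spread sideways by rank. Rab25 and Esrp1 stay under 10 CPM in all 18 Epcam-low cells, Krt8 overlaps across the classes, and Zeb2 and Spp1 have their highest medians in Epcam-low cells.

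Of 7 measured keratins, 5 were called higher and 0 lower, with a median ratio of 2.57. Krt7, a simple-epithelial keratin, had lowest, median and highest values of 291, 1258 and 3428 CPM in Epcam-high cells, against 6.14, 181 and 653 CPM in Epcam-low cells. Krt19 had summed levels of 418 CPM in Epcam-high and 66.2 CPM in Epcam-low cells, and Krt80 had a ratio of 1.41. Krt8 and its partner Krt18, the general keratin pair of simple epithelia, were not called, with ratios of 0.62 and 0.54. Every Epcam-low cell still held at least 613 CPM of Krt8 and 319 CPM of Krt18. Krt5, the usual partner of Krt14 in basal cells, had 0 counts in all 54 cells, for which the exact Poisson upper bound is 0.0472 CPM in the Epcam-high sum.

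Membrane serine proteases and their inhibitors had 5 of 10 measured members called higher and 1 lower. St14, the protease matriptase, had 201 CPM in Epcam-high and 58.4 CPM in Epcam-low cells, and its partner Prss8, prostasin, had a ratio of 1.41. Prss22 reached 10 CPM in 24 of 28 Epcam-high and 3 of 18 Epcam-low cells. The member called lower was Slpi, described with the genes lower in Epcam-high cells. The basement membrane and hemidesmosome list had a median of 0.00 over 18 measured members, of which 5 were called higher. They included the laminin chains Lama3 and Lamb3, with ratios of 3.95 and 1.37, and the integrins Itgb4 and Itgb6, with 2.19 and 2.69. Itga6, the partner chain of Itgb4, had a ratio of -0.12.

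On the other side, Vim stood out. Vim, which encodes vimentin (chr2:13573927-13582826), had lowest, median and highest values of 13.7, 92.8 and 2899 CPM in Epcam-high cells, against 279, 2662 and 4204 CPM in Epcam-low cells. All cells of both classes held Vim above 10 CPM, and Epcam-high cells covered a wide range up to the level of the Epcam-low ones. The ratio of the sums was -2.53. Of 28 measured members of the mesenchymal and matrix list, 8 were called lower and 2 higher, with a median ratio of -0.31. The members called lower were Vim, Col6a1, Sparc, S100a4, Loxl3, Col5a1, Col6a2 and Ltbp2. Sparc, a matrix-binding glycoprotein, had 79.8 CPM in Epcam-high and 281 CPM in Epcam-low cells, and S100a4, a calcium-binding protein linked to cell movement, 75.8 CPM in Epcam-high and 208 CPM in Epcam-low cells. Ltbp2 reached 10 CPM in 14 of 28 Epcam-high and 18 of 18 Epcam-low cells. The collagen VI genes Col6a1 and Col6a2 reached 10 CPM in 5 of 18 Epcam-low cells each, and the ratio of Col6a1 was -0.82 when Epcam-low meant under 10 CPM.

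The members called higher against the direction of the list were Inhba and Tpm2. Inhba, the activin A subunit, had 197 CPM in Epcam-high and 26.6 CPM in Epcam-low cells, and 25 of 28 against 14 of 18 cells reached 10 CPM. Fn1, fibronectin, which often goes with mesenchymal features, was not called and had 363 CPM in Epcam-high and 251 CPM in Epcam-low cells. Axl, a receptor kinase, had a ratio of -0.63 and Cd44 of 0.31. Cdh2, N-cadherin, had 1 count in the Epcam-high sum and 0 in the Epcam-low sum, and Col3a1 had 0 counts in both.

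Among the transcription factors of epithelial-mesenchymal transition, 1 of 11 measured members was called lower and 0 higher. That gene was Zeb2, with 6.53 CPM (5.97 to 7.12) in Epcam-high and 28.0 CPM (26.7 to 29.4) in Epcam-low cells. It reached 10 CPM in 7 of 28 Epcam-high and 11 of 18 Epcam-low cells, so the classes overlapped widely. Snai1 had 48.9 CPM in Epcam-high and 52.9 CPM in Epcam-low cells, a ratio of -0.10. Twist1 had 7.26 CPM in Epcam-high and 7.46 CPM in Epcam-low cells, a ratio of -0.02. Zeb1 and Snai2 lay below 2 CPM in both classes and were not measured by the 5 CPM limit. Zeb2 was thus the single member past 2-fold, though Hmga2 lay just short of that limit with a ratio of -0.97. The number called lower ran between 0 and 3 over 17 other settings.

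**Figure D3:**
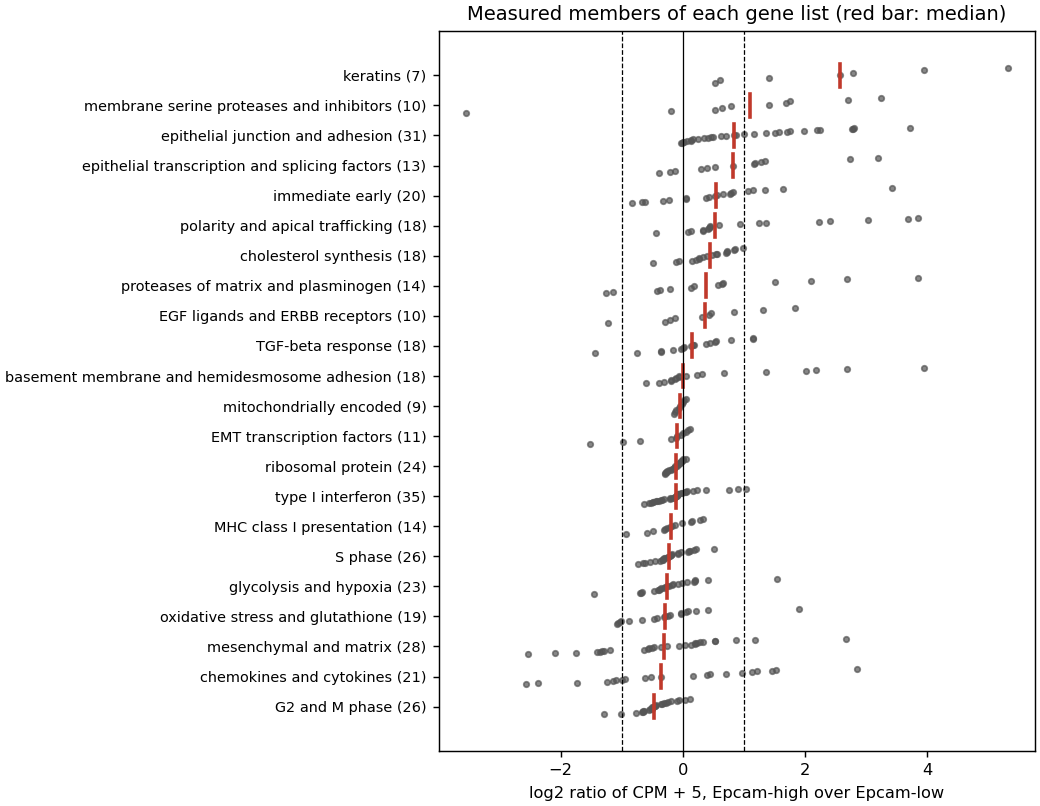
Log2 ratio of (CPM + 5) in Epcam-high over Epcam-low cells for each measured gene (points) of the 22 lists with at least 7 measured members, the number measured being given in brackets; red bars are list medians and dashed lines mark 2-fold. Medians run from 2.57 for keratins to -0.47 for genes of G2 and M phase, and the cell-cycle, ribosomal, mitochondrially encoded and MHC class I lists stay mostly within 2-fold.

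The 12 genes furthest lower in Epcam-high cells were Slpi, Gchfr, Lcn2, Vim, Cxcl5, Ptges, Spp1, Otop1, Col6a1, Pdgfrl, Il12rb1 and Lrp1, with ratios between -3.54 and -1.85. Gchfr, which encodes the feedback regulator of GTP cyclohydrolase, had lowest, median and highest values of 0, 2.41 and 103 CPM in Epcam-high cells, against 29.8, 93.9 and 264 CPM in Epcam-low cells. It reached 10 CPM in 4 of 28 Epcam-high cells and in all 18 Epcam-low cells. Spp1, the secreted phosphoprotein osteopontin, had lowest, median and highest values of 6.78, 179.5 and 1044 CPM in Epcam-high cells, against 79.2, 1008 and 5315 CPM in Epcam-low cells. The upper end of the Epcam-high cells met the median of the Epcam-low ones.

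Slpi, a secreted inhibitor of leukocyte proteases, had a median of 13.8 CPM in Epcam-high and 67.8 CPM in Epcam-low cells, and 1 Epcam-low cell at 3529 CPM raised the sum of its class. Lcn2, a lipocalin that binds iron carriers, reached 10 CPM in 0 of 28 Epcam-high and 5 of 18 Epcam-low cells. Ptges, the inducible prostaglandin E synthase, reached 10 CPM in 3 of 28 Epcam-high and 12 of 18 Epcam-low cells. Lrp1, a large endocytic receptor, had 5.96 CPM in Epcam-high and 34.5 CPM in Epcam-low cells. Otop1, a proton channel, Pdgfrl, a protein related to PDGF receptors, and Il12rb1, a receptor chain for interleukins 12 and 23, reached 10 CPM in 2, 3 and 2 of 28 Epcam-high cells and in 10, 13 and 10 of 18 Epcam-low cells.

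Chemokine and cytokine genes went both ways, with 5 of 21 measured members called higher and 6 lower. The neutrophil-attracting chemokines Cxcl5, Cxcl1 and Cxcl3 were lower in Epcam-high cells. Cxcl5 had lowest, median and highest values of 0.505, 58.0 and 488 CPM in Epcam-high cells, against 1.58, 425 and 2232 CPM in Epcam-low cells, with wide overlap. Cxcl1 and Cxcl3 had ratios of -1.14 and -1.73, and Csf3, the granulocyte growth factor G-CSF, -1.24. Tslp, an epithelial cytokine, was higher, with a median of 345 CPM in Epcam-high and 27.7 CPM in Epcam-low cells. Il23a, an interleukin 23 subunit, had 56.6 CPM in Epcam-high and 17.4 CPM in Epcam-low cells. Ccl5 and Ccl20, also called higher, rested on few cells, since 6 and 2 of 28 Epcam-high and 2 and 2 of 18 Epcam-low cells reached 10 CPM.

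Of 20 measured immediate early genes, 5 were called higher and 0 lower, with a median ratio of 0.55. Junb, an AP-1 subunit, had 466 CPM in Epcam-high and 206 CPM in Epcam-low cells, and Klf6, a zinc finger factor, 336 CPM in Epcam-high and 129 CPM in Epcam-low cells. Zfp36, which destabilises cytokine RNAs, and Fosb had ratios of 1.65 and 1.06. Among ERBB receptors and EGF ligands, Erbb3 and Egfr were called higher and the ligand Nrg1 lower, of 10 measured. Erbb3 reached 10 CPM in 15 of 28 Epcam-high and 0 of 18 Epcam-low cells. Nrg1, a ligand of Erbb3, had 18.2 CPM in Epcam-high and 49.4 CPM in Epcam-low cells. Among matrix proteases, Adamts1 and Mmp10 had ratios of 2.11 and 2.68, and the inhibitor Timp1 and Mmp3 of -1.15 and -1.25; 5 of 28 Epcam-high cells carried Mmp10 at 10 CPM or more.

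Cell-cycle, housekeeping and stress programmes had few or no called members, or members called in both directions. Of 26 S phase genes 0 were called in either direction, with a median of -0.22, and of 26 G2 and M phase genes 2 were called lower, Ube2c and Ccnb1, with a median of -0.47 and 2 members above 0. The G2 and M count depended on the cells used, with 7 called lower (median -0.70) when Epcam-low meant under 10 CPM and 0 (median -0.17) within cells numbered 27 or lower. The summed level of the G2 and M list per cell had medians of 3502 CPM in Epcam-high and 3794 CPM in Epcam-low cells, over ranges that overlapped. Mki67 had 108 CPM in Epcam-high and 116 CPM in Epcam-low cells. No gene was called among 14 of MHC class I presentation, 24 ribosomal proteins, 9 mitochondrially encoded genes and 18 of cholesterol synthesis, the last with a median of 0.44. Of 35 type I interferon genes, 1 was called, Ifit3, carried by few cells with a highest value of 1927 CPM. Glycolysis and hypoxia genes had 1 of 23 called higher, Ndrg1, and 1 lower, Egln3. TGF-beta response genes had 2 of 18 called higher, Junb and Bhlhe40, and 1 lower, Cyr61. Oxidative stress genes had 1 of 19 called higher, Osgin1, and 4 lower, Gclm, Nqo1, Mgst1 and Gsta4, with a median of -0.29. The 4 lower ratios lay just past the limit, between -1.07 and -1.01, and the number called lower ran between 1 and 6 over 17 other settings.

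Most markers of other cell types were near 0 in both classes: 4 of 10 blood-cell, 4 of 10 fibroblast and 5 of 8 endothelial markers had 0 counts in every cell. Of 10 blood-cell markers 1 reached 5 CPM, Lcp1, an actin-bundling protein also made by carcinoma lines, with 43.4 CPM in Epcam-high and 18.1 CPM in Epcam-low cells. Ptprc, which defines leukocytes, had 0 counts in all 54 cells. Summed over the list, blood-cell markers had a median of 13.9 CPM and a highest cell of 397 CPM in Epcam-high, and a median of 0.381 CPM and a highest cell of 90.6 CPM in Epcam-low cells. Of 10 fibroblast markers 1 was measured, Pdgfra, with 2.88 CPM in Epcam-high and 5.92 CPM in Epcam-low cells, and of 8 endothelial markers 1, Egfl7, with a ratio of -0.09. The summed fibroblast list had medians of 0.312 CPM in Epcam-high and 2.21 CPM in Epcam-low cells, and the endothelial list 13.8 CPM in Epcam-high and 18.6 CPM in Epcam-low cells. Their part in the results was not tested.

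Vim and the epithelial pair did not exclude each other in every cell. Vim at 1000 CPM or more, a level chosen after seeing the values, was present in 4 of 28 Epcam-high, 5 of 8 intermediate and 16 of 18 Epcam-low cells. The 4 Epcam-high cells held between 229 and 372 CPM of Epcam and Cldn4, in the lower part of their class. Esrp1, Rab25 and Mal2 reached 10 CPM in 0 of these 4 cells, against 22, 21 and 22 of the 24 other Epcam-high cells. Ap1m2 did so in 1 of 4 and 20 of 24, and Lama3 in 2 of 4 and 18 of 24. Krt14 reached 10 CPM in 4 of 4 and 22 of 24, and Cdh1 in 4 of 4 and 24 of 24, and no test was made of these counts. These 4 cells thus kept E-cadherin and Krt14 RNA and held little or no Esrp1, Rab25 and Mal2 RNA. Of them, 1 held 63.5 CPM of Epcam and 166 CPM of Cldn4, so it was in the class through Cldn4. The Epcam-high cell next below the Vim limit, at 789 CPM, held 41.0 CPM of Esrp1, 80.5 CPM of Rab25 and 0 CPM of Mal2. The gene totals of the 4 cells were 2226116, 2958842, 3450778 and 3577279 counts, against a class median of 2753501 and a highest total of 4294650. No doublet caller was run. Without these 4 cells, 330 genes were called higher and 215 lower.

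**Figure D4:**
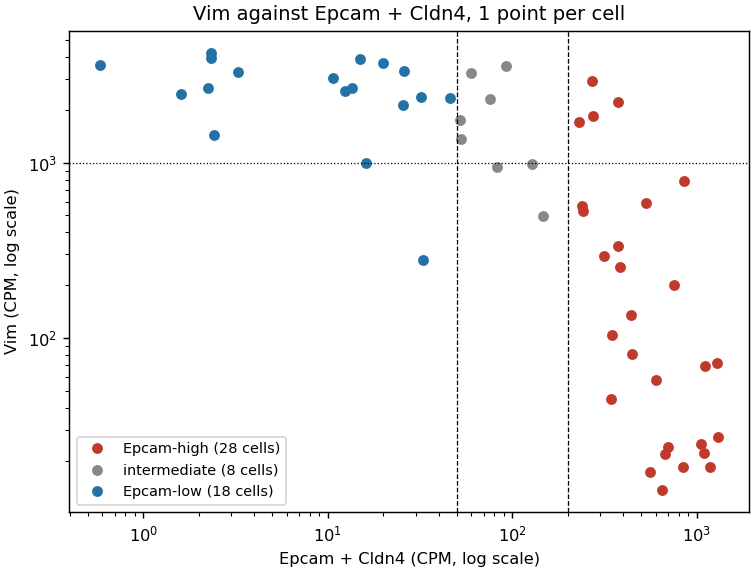
Vim against the sum of Epcam and Cldn4, both in CPM on log axes, with 1 point per cultured 4T1 cell coloured by class; dashed lines mark 200 and 50 CPM of the pair and the dotted line 1000 CPM of Vim. 4 Epcam-high cells, 5 intermediate cells and 16 Epcam-low cells lie above the dotted line.

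The intermediate cells were nearer the Epcam-low cells for several genes. Rab25, Esrp1, Mal2 and Lama3 each reached 10 CPM in 1 of 8 intermediate cells, the same cell for each gene. That cell had the highest sum of Epcam and Cldn4 in its class, 147 CPM, and the lowest Vim, 496 CPM. Vim had a median of 1553 CPM in intermediate cells, between the 92.8 CPM of Epcam-high and the 2662 CPM of Epcam-low cells. Krt7 and Cdh1 had intermediate medians of 445 and 134 CPM, also between those of the other classes. Krt14 reached 10 CPM in 7 of 8 intermediate cells and Gchfr in 6. With 8 cells these shares are counts of a small set.

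Over all 54 cells and 6616 genes with a mean of 20 CPM or more, the genes whose CPM followed the sum of Epcam and Cldn4 most closely by rank were Jup (rho 0.81), Fam167a, Perp, Tmem54, Krt7, Anxa1, Macc1, Rab25, Ap1m2 and Cdh1 (0.75). Furthest the other way were Vim (-0.84), Gchfr (-0.74), Dap, Sparc, Col8a1, Rai14, Gm45716, S100a4, Timp1 and Ank (-0.63). Anxa1, annexin A1, had summed levels of 2216 CPM in Epcam-high and 494 CPM in Epcam-low cells, and Macc1, a regulator of the receptor Met, 40.3 CPM in Epcam-high and 4.43 CPM in Epcam-low cells. Ank, a pyrophosphate transporter, had 27.7 CPM in Epcam-high and 97.6 CPM in Epcam-low cells. These rank correlations share the cells and their depth and carry no test.

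The same limits found no Epcam-high cell in 4T1.2. All 53 cultured 4T1.2 cells that passed the cell filter were Epcam-low, with a median of 1.92 and a highest value of 11.1 CPM for the pair, so no split could be made there. Vim had a summed level of 2439.6 CPM in 4T1.2 and Gchfr of 93.3 CPM, close to the 2740.0 and 103 CPM of Epcam-low 4T1 cells. Cdh1 had 1.56 CPM in 4T1.2, against 85.0 CPM in Epcam-low 4T1 cells, and Grhl2 had 0.131 CPM in 4T1.2, against 24.3 CPM in Epcam-low 4T1 cells. Krt19 had 1.25 CPM in 4T1.2, against 66.2 CPM in Epcam-low 4T1 cells. Epcam-low 4T1 cells thus held more RNA of these epithelial genes than 4T1.2 cells did. Other genes placed 4T1.2 on the Epcam-high side, such as Tslp at 524 CPM in 4T1.2, against 426 CPM in Epcam-high and 54.3 CPM in Epcam-low 4T1 cells. Of the 300 genes called higher in Epcam-high 4T1 cells, 232 had a 4T1.2 level nearer the Epcam-low one, and of the 151 called lower, 97 did. The same share over the other measured genes was not computed, so these counts do not measure how like 4T1.2 is to either class.

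The same limits were applied to fat pad cells, which had no part in choosing the culture classes. Of 96 fat pad cells, 71 held under 300 CPM of blood-cell markers and at least 100 CPM of mCherry, and of these 59 were Epcam-high, 5 intermediate and 7 Epcam-low. The sum of Epcam and Cldn4 had medians of 2441 CPM in the 59 and 31.5 CPM in the 7. The 7 lay between 21.5 and 34.4 CPM, below the median of 55.9 CPM in the 19 wells with blood-cell RNA at 300 CPM or more, so the pair in them was at or under the level in wells of mixed content. Of 10494 genes measured there, 1329 (12.7%) were called higher and 968 (9.22%) lower, more than in culture and from fewer Epcam-low cells. Markers of other cell types moved with this split: Pdgfra, a fibroblast marker, had 13.0 CPM in Epcam-high and 51.4 CPM in Epcam-low fat pad cells, and Lcp1, of the blood-cell list, 42.0 CPM in Epcam-high and 3.71 CPM in Epcam-low fat pad cells. Their part in the fat pad values was not tested. Of the culture genes called higher, 253 were measured in the fat pad, and 134 were called higher and 9 lower there. Of those called lower, 129 were measured, and 53 were called lower and 20 higher.

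Several genes kept their direction in the fat pad. Krt14 had 482 CPM in Epcam-high and 7.43 CPM in Epcam-low fat pad cells, a ratio of 5.29. Esrp1, Ap1m2 and Rab25 had fat pad ratios of 3.22, 3.61 and 3.20, and Cdh1 of 2.10. Vim had 1253 CPM in Epcam-high and 2840.3 CPM in Epcam-low fat pad cells, and Zeb2 and Lrp1 had ratios of -2.01 and -1.98. Others did not follow. Slpi, Lcn2 and Rcan1 had fat pad ratios of 0.56, 0.08 and 0.01, Il12rb1 was higher in Epcam-high fat pad cells at 2.26, and Itgb4 had -0.49. Serpinb2 had 0 counts in both fat pad classes. Cell-cycle and interferon genes had many called members in the fat pad. Of 26 G2 and M genes 19 were called higher in Epcam-high fat pad cells, with Mki67 at 26.1 CPM in Epcam-high and 0.286 CPM in Epcam-low cells, and 20 of 35 type I interferon genes were called higher. The difference between culture and fat pad was not tested.

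**Figure D5:**
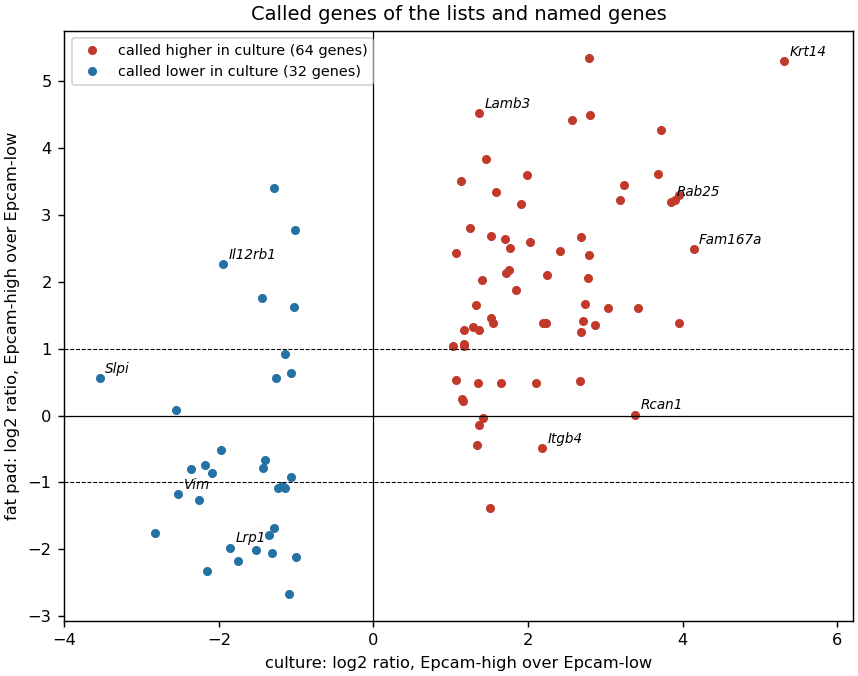
Log2 ratio of Epcam-high over Epcam-low cells in the fat pad (y axis) against that in culture (x axis), both of CPM + 5, for the list members and named genes called in culture and measured in the fat pad, 64 called higher (red) and 32 called lower (blue); dashed lines mark 2-fold in the fat pad. Most red points lie above 0 and most blue points below 0, with Itgb4 among the red points below and Il12rb1 among the blue points above.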

How the data were processed

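The authors deposited whole-number read counts per gene symbol in 1 table with a column per cell, per the file headers, and reads carry no molecular identifiers. Libraries were Smart-seq2 with oligo-dT priming, and wells whose mCherry qPCR was late were discarded, per the labels' protocols. Alignment and counting tools in the submitters' processing notes include STAR 2.6.0c and featureCounts 1.6.2, against mm10. No source used here says whether strand was counted, so overlapping genes may share reads. Of 40840 rows, 78 ERCC, 2 reporter and 4 repeated date-like rows (0.0149% of counts) stayed out of totals, leaving 40756.

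Counts of the cells of a class were summed and scaled by their total in Python 3.11.15 (pandas 2.3.3, scipy 1.17.1). At 20 CPM or more the widest side of a 95% exact Poisson interval was 5.84% of the value. The summation was tested on simulated data. No p-value was computed, since cells of 1 sample are not replicates. No 2 culture cells held identical values, and no doublet caller was run.

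The members, limits and gene lists were chosen with earlier results of these data known. Named genes were the 12 furthest apart each way with at least 20 CPM in the higher class, at least 1 CPM in 30% of its cells, and still 2-fold apart with cells weighted equally and without the highest cell. List members were added up to 6 in the direction of the list and 3 against it, with well-known members as values only. The genes shown for the 10 highest and 10 lowest rank correlations had a mean of 20 CPM or more. Members named beyond these, to complete a count or a gene family, were chosen after their values were seen. Alternatives were TMM factors (edgeR 4.0.16), size factors (DESeq2 1.42.0), other pseudocounts, filters, limits and weights, and thinning to 500000 counts. Promoter windows are RefSeq's for GRCm38.p6, and gene positions GENCODE M21, the same assembly as mm10. Some genes that these rules select are not reported here.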

Additional observations from a re-analysis of the deposited data

How the results depend on the processing

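The counts of 300 genes called higher and 151 called lower moved by more than 1.5 times under some settings. With a pseudocount of 1 CPM they were 528 and 336, which held all of the 300 and 151. Among genes of 20 CPM or more, 195 were called higher, since fewer genes were tested. With Epcam-low meaning under 10 CPM (28 against 7 cells) they were 530 and 240, and with Cldn4 alone (10 against 30 cells) 369 were called lower. Of the 300 and 151 genes, 179 and 102 were called in the same direction with Cldn4 alone. Within cells numbered 27 or lower (17 against 5 cells) the counts were 656 and 277, and within those numbered 28 or higher (11 against 13 cells) 564 and 334; these settings, the one without 4 cells high in Vim and the one without cells under 1000000 counts were chosen after seeing the data. The cause of these moves was not tested.

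Of the 24 named genes, 23 or more stayed 2-fold apart under each setting other than Cldn4 alone, where 22 did. Picking them already required 2-fold with cells weighted equally and without the highest cell of the higher class, so those settings largely repeated the choice. Of 104 called genes of the lists or named, 64 were at least 2-fold apart under each of 13 alternative settings. Both counts include Epcam and Cldn4, which set the classes, so their large ratios followed from the rule. Settings that only changed the gene filter or the mitochondrial limit left every ratio as it was, so no gene could fail there. With the pseudocount of 1 CPM no called gene could fail either. Ifit3, Ccl5 and Ccl20, 3 of the 104, took the other sign under some settings, with lowest ratios of -1.15, -0.34 and -0.96. The junction list kept 12 to 19 members called higher and keratins 5 to 7, over 17 settings. List medians changed sign for chemokines (-0.83 to 0.31), immediate early genes (-0.11 to 0.84), interferon genes (-0.58 to 0.22), matrix proteases (-0.17 to 1.11), EGF and ERBB genes (-0.35 to 0.44), MHC class I (-0.64 to 0.20), oxidative stress (-0.39 to 0.06), basement membrane (-0.05 to 0.31) and mitochondrially encoded genes (-0.12 to 0.08). TMM and DESeq2 scaling left all 300 higher calls and gave 140 and 143 lower ones. Both scalings raised the ratios slightly, so no higher call could be lost there. No paired analysis was possible because cell numbers only name cells and the classes come from 1 sample. Counting error is small at these depths, and the number of cells limits the values.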
